A study of Mus musculus with 2 samples.

Results

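Chemokine transcripts were described in epidermal lymphocytes for 6 genes, Xcl1, Ccl1, Ccl3, Ccl4, Ccl5 and Cxcl2, out of 31053 genes counted. The genes were chosen by name, without a threshold on their values, and their transcripts were summed by library over 3 classes of cells set by other genes. The DETC class, for dendritic epidermal T cells, held at least 3 transcripts of Trdc and at least 3 of Cd3d, Cd3e and Cd3g together, with none of Trac, Cd4, Cd8a or Cd8b1. The alpha-beta T class held at least 1 Trac transcript and no Trdv4. The ILC class, for innate lymphoid cells, held at least 3 transcripts of Il7r, Rora and Gata3 together, at most 2 of the CD3 genes and no Trdv4.

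Chemokines are small secreted proteins that guide leukocytes through receptors coupled to G proteins. Xcl1 acts through Xcr1 on cross-presenting dendritic cells. Ccl1 acts through Ccr8, which is found on T cells and ILCs in skin. Ccl3, Ccl4 and Ccl5 draw T cells and monocytes, and Cxcl2 draws neutrophils through Cxcr2. DETCs are gamma-delta T cells of mouse epidermis with a nearly uniform receptor, and Skint1 is a keratinocyte protein that acts in their selection.

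Cells came from ear epidermis of wild-type FVB/NJ female mice aged 8 weeks, 7 d after intradermal injection of either an isotype control or Skint1 antibody. Lymphocytes were released with trypsin at 37 °C and sorted as CD45+EpCAM-MHC-II- cells, and 1 library per treatment was counted with 3' chemistry. The antibody effect and the library therefore cannot be told apart, and no test between treatments was possible. Values are counts of unique molecular identifiers (UMIs) as a rate over the UMIs of the class, scaled to counts per 1000000 (CPM), with exact Poisson 95% intervals. Shares of cells have exact Clopper-Pearson 95% intervals and log2 ratios have exact binomial ones, all of which cover counting error only. The Poisson and binomial intervals treat each UMI as a separate draw. They do not cover the spread between cells where few cells hold most UMIs of a gene. A 3' count tags 1 end of a transcript, so CPM were not divided by gene length.

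The isotype library held 27272211 UMIs and the Skint1 antibody library 32450957. Filters on genes (500 to 2500) and on mitochondrial UMIs (12% at most) left cells that numbered 4242 and 5961. Of these, 3544 and 4945 were DETCs, 197 and 213 were alpha-beta T cells, and 82 and 139 were ILCs, while 428 and 678 fell in no class. Alpha-beta T and ILC gates shared 9 and 14 cells, and the kept cells of both libraries shared 5 barcodes. All 9 DETC markers reached 10 CPM in the DETC class of both libraries, and all 10 alpha-beta T markers did so in the alpha-beta T class. The DETC, alpha-beta T and ILC marker lists hold genes of the gates, so part of these counts was set by the gates. In the alpha-beta T class, 7 of the 9 DETC markers also reached 10 CPM in both libraries. The alpha-beta T class also held 18 and 44 cells with 3 or more Trdc UMIs. The ILC class had 8 of 10 ILC markers at 10 CPM or more in both libraries, with Arg1 at 0 in both and Il1rl1 at 0 in the isotype library. The alpha-beta T class had 8 and 9 of these markers at that level. In the ILC class, summed ILC markers came to 2013 and 2159 CPM and summed alpha-beta T markers to 1935 and 1803 CPM. Markers of dermal gamma-delta T cells came to 561 and 553 CPM there. The summed keratinocyte markers of the ILC class came to 525 CPM (isotype) and 4501 CPM (Skint1 antibody), against 36.2 and 48.8 CPM in DETCs. Its summed Langerhans or myeloid markers came to 1337 and 2027 CPM. Of its cells, 13 and 31 held at least 3 UMIs of keratin genes or of Langerhans cell genes.

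In the mouse genome (GRCm38, GENCODE vM21), Xcl1 lies on chromosome 1 from 164931644 to 164935527 and Cxcl2 on chromosome 5 from 90903871 to 90905938. The remaining members lie on chromosome 11. Ccl5 spans 83525778 to 83530518, Ccl3 83647844 to 83649355 and Ccl4 83662584 to 83664683, and Ccl3 and Ccl4 are 13228 bases apart. The Ccl1 gene model runs from 82176657 to 82305690, and its RefSeq start lies inside that span. The 250 bases upstream of the RefSeq start (GRCm38.p6) are shown 5′ to 3′ for Xcl1 and Cxcl2, the 2 members most abundant in DETCs, and for Ccl1, which shared cells with Xcl1. They lie at chr1:164935523-164935772 on the minus strand, chr5:90903649-90903898 on the plus strand and chr11:82179813-82180062 on the minus strand. Capitals mark letters matching a motif on either strand.
Xcl1: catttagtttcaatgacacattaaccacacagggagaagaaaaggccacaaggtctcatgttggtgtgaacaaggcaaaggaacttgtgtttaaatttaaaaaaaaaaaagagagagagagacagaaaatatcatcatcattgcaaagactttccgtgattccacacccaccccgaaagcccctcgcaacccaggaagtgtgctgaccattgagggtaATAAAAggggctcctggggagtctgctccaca
Cxcl2: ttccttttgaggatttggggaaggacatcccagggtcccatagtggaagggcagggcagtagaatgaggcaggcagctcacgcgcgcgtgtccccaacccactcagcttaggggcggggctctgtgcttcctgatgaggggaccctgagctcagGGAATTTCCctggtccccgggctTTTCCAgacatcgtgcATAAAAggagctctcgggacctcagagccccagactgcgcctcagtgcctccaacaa
Ccl1: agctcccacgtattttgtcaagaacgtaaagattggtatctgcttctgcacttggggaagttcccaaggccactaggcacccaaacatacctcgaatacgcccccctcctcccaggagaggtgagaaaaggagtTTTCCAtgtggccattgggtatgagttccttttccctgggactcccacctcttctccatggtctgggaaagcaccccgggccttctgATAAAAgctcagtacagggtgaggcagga

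The motifs searched were TGANTCA for AP-1, GGANTTTCC for NF-kB, TGGAAA for NFAT, and ATAAAA as a TATA-type stretch. No motif overlapped another in these windows. The NF-kB letters occurred in the Cxcl2 window, beginning 96 bases before the start, and in 1.07% of 32851 RefSeq windows of the same length. The NFAT letters occurred on the opposite strand in the Cxcl2 and Ccl1 windows and in 18.6% of all windows. ATAAAA lay 32, 57 and 29 bases before the start of Xcl1, Cxcl2 and Ccl1, and in 17.0% of all windows. The AP-1 letters, held by 6.75% of all windows, were in none of the 3. These are matches of letters and not sites of binding. RefSeq windows were found for 4 of the 6 members.

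In DETCs, Xcl1 and Cxcl2 made up most of the chemokine transcripts counted among the 6 genes. Xcl1 was at 319 CPM (310.1 to 328) after isotype control and at 96.7 CPM (92.3 to 101) after Skint1 antibody. Cxcl2 was at 124 CPM (118 to 130) and 123 CPM (118 to 128). Ccl1 was lower, at 19.7 CPM (17.5 to 22.1) and 11.0 CPM (9.51 to 12.6). Ccl4 was at 3.07 and 3.64 CPM, from 45 and 68 UMIs. Ccl5 came to 8 and 12 UMIs over all DETCs, and Ccl3 to 1 and 7 UMIs. In CPM the order in the isotype library was Xcl1, Cxcl2, Ccl1, Ccl4, Ccl5 and Ccl3, with intervals that did not overlap between the first 5. In the Skint1 antibody library Cxcl2 was above Xcl1, and the intervals of Ccl5 and Ccl3 overlapped.

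Free RNA in the droplets was measured in barcodes of 1 to 100 UMIs. Keratin levels there and in DETCs gave an estimate of 1.79% and 2.14% of DETC UMIs from free RNA. At these shares free RNA would add 3.07 and 1.73 CPM of Xcl1, 1.60 and 1.96 CPM of Cxcl2, and 0.35 and 0.52 CPM of Ccl1. For Ccl5 it would add 0.20 and 0.61 CPM, against 0.55 and 0.64 CPM measured, so the Ccl5 counts of the Skint1 antibody library were at the level of free RNA. For Ccl3 the estimate was 0.071 and 0.026 CPM, against 0.068 and 0.37 CPM measured.

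**Figure D1:**
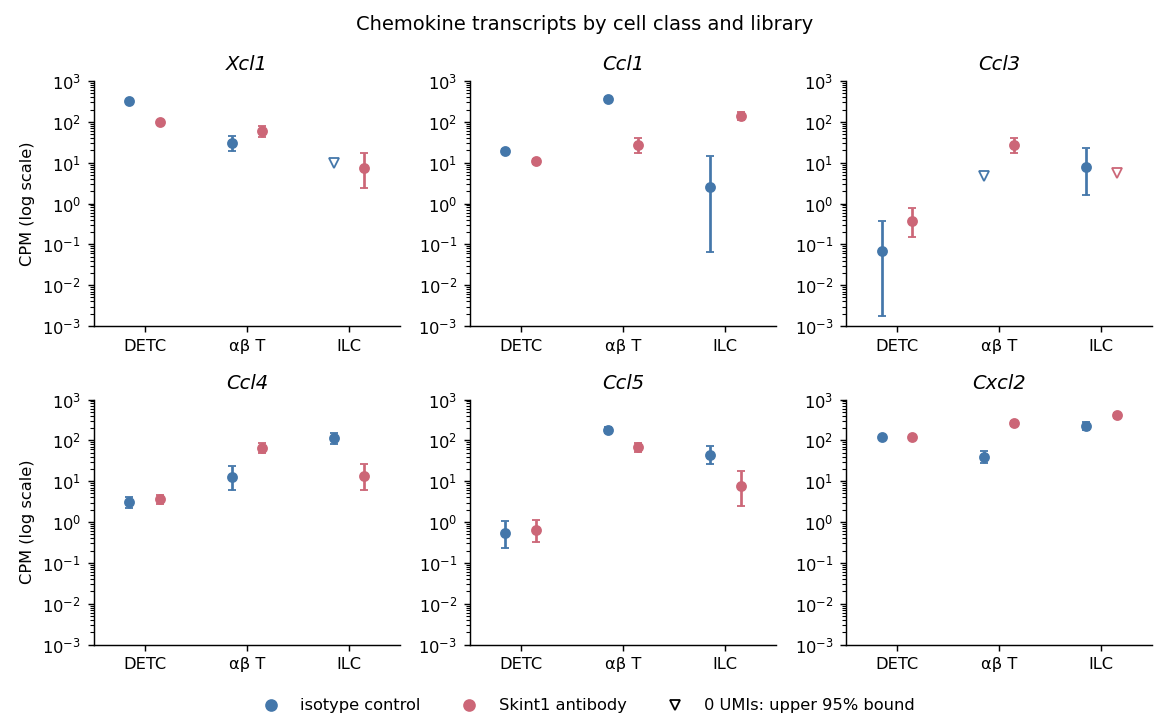
Levels of the 6 chemokine genes as CPM (log scale) in each class and library. Points give UMIs summed over the class as CPM, bars the exact Poisson 95% interval, and open triangles the upper 95% bound where no UMI was counted. Xcl1 was highest in DETCs (319 and 96.7 CPM) and Ccl5 in alpha-beta T cells (182 and 67.0 CPM), while Cxcl2 was at 222 and 408 CPM in ILCs, or 101 and 203 CPM without cells holding keratin or Langerhans UMIs.

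Of the 3 members at 10 CPM or more in DETCs, Xcl1 was at least 2-fold lower in the Skint1 antibody library and none was 2-fold higher. Over all genes at that level, 0.0398% were 2-fold lower and 0% were 2-fold higher, so Xcl1 was 1 of 3 genes of 7547. The log2 ratio of Skint1 antibody over isotype was −1.72 (−1.80 to −1.64) for Xcl1, −0.85 (−1.11 to −0.58) for Ccl1 and −0.01 (−0.10 to 0.07) for Cxcl2. Ccl4 had a ratio of 0.24 and Ccl5 of 0.23, with intervals that included 0. The share of DETCs with an Xcl1 UMI, after each cell was thinned to 2000 UMIs, was 15.3% (14.1 to 16.5) against 6.89% (6.19 to 7.65). The shares were 5.22% (4.497 to 6.02) and 4.53% (3.96 to 5.16) for Cxcl2, and 2.11% (1.66 to 2.65) and 1.52% (1.19 to 1.91) for Ccl1. Without thinning they were 19.9% and 9.77% for Xcl1, 6.57% and 5.95% for Cxcl2, and 2.91% and 2.31% for Ccl1. Thinning left out 134 and 202 cells with fewer UMIs. As a background, an Xcl1 UMI was found in 0 of 77 thinned ILCs of the isotype library, which allows a share of up to 3.896% by a floor of 3 counts and 4.68% by the exact interval, and in 0.735% of 136 thinned ILCs of the Skint1 antibody library. Median depth was 4570 and 4334 UMIs in ILCs, and 4028 and 3577 UMIs in DETCs.

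The Xcl1 ratio did not rest on the most abundant cell, but its size did in the subset of low mitochondrial percent. The DETC with most Xcl1 UMIs in the Skint1 antibody library held 334 of its 1809 UMIs, together with 46 Il2 UMIs, and the next cells held 31 each. Without the highest cell of each library the ratio was −1.95. Among DETCs with at most 5% mitochondrial UMIs, which included that cell, the ratio was −0.94 and no longer 2-fold, and it was −1.67 when the highest cell of each library was left out. The thinned shares in that subset were 14.1% and 6.94%. In the subsets over 5 to 7% and over 7 to 9% mitochondrial UMIs the ratio was −2.16 and −2.49. Over 9 to 12% it was −0.24 (−0.80 to 0.31), over 123 and 135 cells. By genes per cell, Xcl1 had ratios of −1.81, −1.87 and −1.65 from fewest to most genes within the limits, and −0.53 (−0.74 to −0.33) in cells of the DETC gate above 2500 genes.

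Cxcl2 ratios changed sign with the number of genes per DETC and differed by mitochondrial percent. The ratio was 0.73 (0.55 to 0.91) in cells with 500 to under 1500 genes, −0.30 (−0.44 to −0.16) in cells with 1500 to under 2000 genes, and −0.45 (−0.65 to −0.26) in cells with 2000 to 2500 genes. By mitochondrial percent, Cxcl2 had ratios of 0.057 at up to 5% and 0.14 over 5 to 7%, both with intervals that included 0. It was at −0.39 (−0.68 to −0.098) over 7 to 9% and 2-fold lower over 9 to 12%, at −1.61 (−2.64 to −0.68). Ccl1 had ratios from −1.03 to −0.55 over the subsets of mitochondrial percent. By genes per cell, Ccl1 had ratios of 0.18, −1.34 and −1.16 from fewest to most genes. In DETCs above 2500 genes it was 3.04, where 1 cell held 284 of 319 Ccl1 UMIs of the Skint1 antibody library. Without an upper limit on genes the Ccl1 ratio in DETCs was 0.38, and without the highest cell as well it was −0.61. Cells of no class with Trdc and CD3 as in the DETC gate, which held Trac, Cd4 or Cd8 UMIs, numbered 191 and 331. Their Xcl1 level was 283 and 65.7 CPM, a log2 ratio of −2.11 (−2.47 to −1.76). Their Cxcl2 level was 38.6 and 117 CPM, a ratio of 1.60 (1.07 to 2.17).

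**Figure D2:**
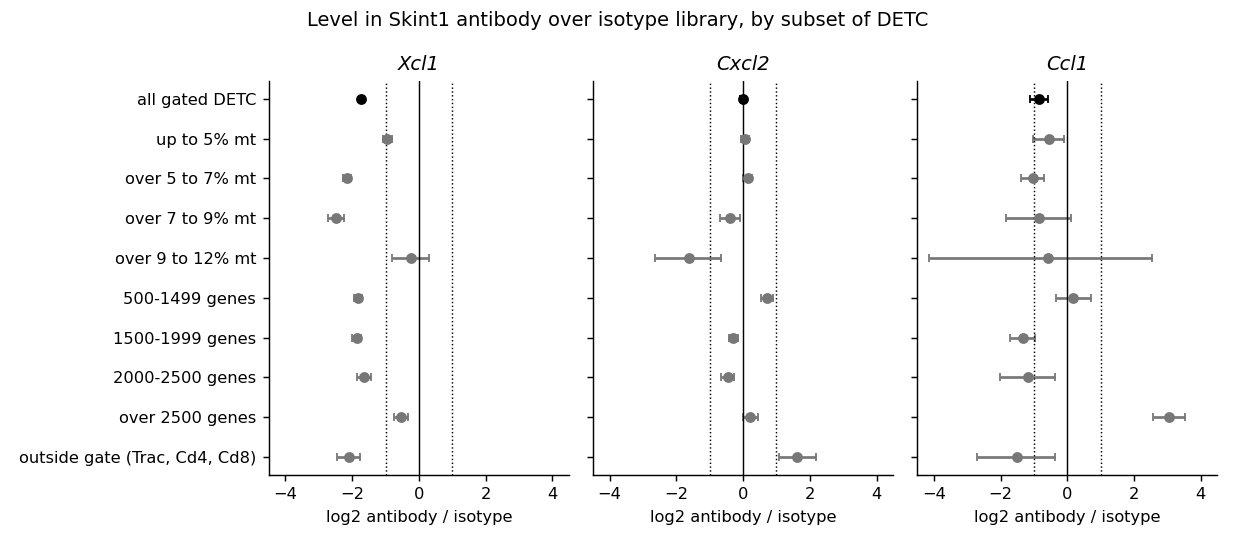
Log2 ratio of CPM, Skint1 antibody over isotype library, for Xcl1, Cxcl2 and Ccl1 in all gated DETCs (black) and in subsets by mitochondrial (mt) percent, by number of genes, and just outside the gate (grey). Bars are exact binomial 95% intervals, and dotted lines mark 2-fold. Xcl1 lay below 0 in each subset, from −2.49 to −0.24, whereas Cxcl2 lay on either side of 0.

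Of 16 genes of the T cell receptor (TCR) response, all at 10 CPM or more, none passed 2-fold in either direction, and the median log2 ratio was −0.15. Tnfrsf9, which encodes the costimulatory receptor 4-1BB, came nearest, at 125 and 63.5 CPM with a ratio of −0.97 (−1.08 to −0.87). None of 7 immediate early AP-1 genes, 9 lymphocyte cytokines or 8 heat shock genes at that level passed 2-fold, with medians of −0.16, −0.09 and −0.32. The median over genes at 50 CPM or more was −0.03. Of 31 other chemokine ligands counted, Cxcl10, which draws cells with Cxcr3, and Ccl25, a ligand of Ccr9, reached 10 CPM over the DETCs of both libraries pooled. The neutrophil attractant Cxcl1 fell short of that at 6.41 and 11.8 CPM, a log2 ratio of 0.88 (0.53 to 1.25). Cxcl10 was at 97.5 and 130.01 CPM, a log2 ratio of 0.41 (0.32 to 0.51). Ccl25 was at 20.7 and 23.5 CPM. The 6 members made up 76.7% and 56.6% of the UMIs of all chemokine ligands counted in DETCs, with Xcl1 alone at 52.5% and 23.3%.

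Of 23 chemokine receptors, 6 reached 10 CPM in DETCs of both libraries pooled and none passed 2-fold. Cx3cr1, the receptor of fractalkine, was at 137 and 164 CPM, Cxcr6, the receptor of Cxcl16, at 143 and 112 CPM, and Ccr2, a receptor of Ccl2, at 95.8 and 108 CPM. Ccrl2, a receptor that does not signal in the classical way, Ccr7, which guides cells to lymph nodes, and Cxcr4, the receptor of Cxcl12, were between 8.34 and 29.3 CPM.

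Chemokine UMIs were concentrated in few DETCs. In the isotype library 50 cells held 50% of the Xcl1 UMIs, 27 cells held that share of Cxcl2 and 15 cells that of Ccl1. In the Skint1 antibody library the numbers were 49, 31 and 23 cells. DETCs with at least 10 Xcl1 UMIs numbered 104 and 29, and held 64.3% and 41.0% of all Xcl1 UMIs. DETCs with at least 10 Cxcl2 UMIs numbered 54 and 71, and held 69.3% and 73.7% of all Cxcl2 UMIs. For Ccl1 there were 3 such cells and 0. The highest DETC held 223 and 334 Xcl1 UMIs, 99 and 105 Cxcl2 UMIs, and 29 and 9 Ccl1 UMIs. A single Xcl1 UMI was held by 246 of the 706 DETCs with the gene in the isotype library and by 220 of 483 in the other.

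The variance of thinned UMIs over their mean (the Fano factor, near 1 for counts spread at random) was 18.4 and 35.0 for Xcl1, and 9.97 and 18.7 for Cxcl2. The median over genes at 50 CPM or more was 1.06 in both libraries. Xcl1 ranked 2nd of 2871 and of 2811 genes, and Cxcl2 ranked 4th and 3rd. Gzmc, a granzyme of cytotoxic lymphocytes, ranked first in both. The DETC with 334 Xcl1 UMIs, against 31 in the next cell, entered the Skint1 antibody value of 35.0. The Fano factor and rank without that cell were not computed, so the 2 Xcl1 values cannot be compared as spread over many cells. In DETCs that held the gene, the mean was 6.63 and 3.75 UMIs of Xcl1 and 7.80 and 7.81 UMIs of Cxcl2.

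**Figure D3:**
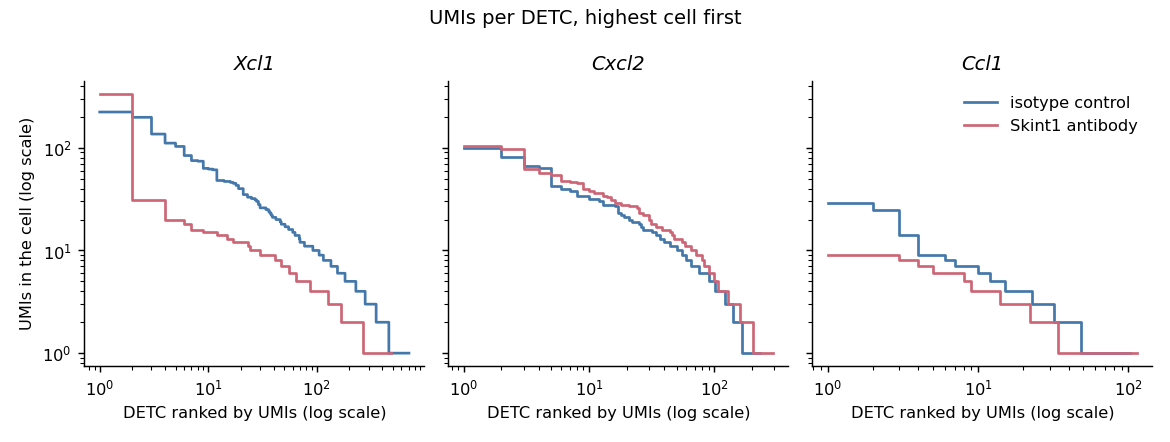
UMIs of Xcl1, Cxcl2 and Ccl1 in each DETC that held any, ranked from the highest cell (both axes on log scales), for the isotype control (blue) and Skint1 antibody (red) libraries. Apart from its highest cell of 334 UMIs, the Skint1 antibody curve of Xcl1 lay below the isotype curve down to the cells with a single UMI, where they met, while the Cxcl2 curves lay close together. Cell numbers differ, at 3544 and 4945.

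DETCs with more than 1 of the 6 chemokines were few. After thinning, 19.6% of isotype DETCs held exactly 1 member, 1.64% held 2 and 0.117% held 3 or more. In the Skint1 antibody library the shares were 12.1%, 0.633% and 0.0211%. Xcl1 and Ccl1 were found in the same DETC in 26 cells, against 11.0 if independent, a ratio of 2.36 (1.54 to 3.46). With Skint1 antibody they were found together in 13 cells, against 4.96, which gives 2.62 (1.39 to 4.48). Ccl1 was found in 4.99% of DETCs with Xcl1 and 1.59% of those without in the isotype library, and in 3.98% and 1.34% in the Skint1 antibody library. Xcl1 was found in 36.1% of DETCs with Ccl1 and 14.8% of those without in the isotype library, and in 18.1% and 6.72% in the Skint1 antibody library.

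Xcl1 and Cxcl2, counted from 1 UMI, shared 27 cells against 27.2, and 15 cells against 14.8, with ratios of 0.99 (0.65 to 1.44) and 1.01 (0.57 to 1.67). At 10 UMIs or more of each gene, without thinning, 104 Xcl1 cells and 54 Cxcl2 cells of the isotype library had 5 cells in common (1.62 to 11.7), against 1.58 if independent. The 29 and 71 such cells of the Skint1 antibody library had 1 in common, against 0.42. When a gene counted as found only from 2 UMIs, the ratio of Xcl1 and Cxcl2 was 1.49 and 1.76, and that of Xcl1 and Ccl1 reached 4.59 in the Skint1 antibody library. Ccl1 and Cxcl2 shared 7 and 4 cells, against 3.76 and 3.26, with intervals that included a ratio of 1. Ccl4 and Cxcl2 shared 4 cells against 0.89 in the isotype library, and 0 against 0.68 in the Skint1 antibody library. Cells of 1 library share depth, free RNA and handling, so these ratios describe the libraries.

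**Figure D4:**
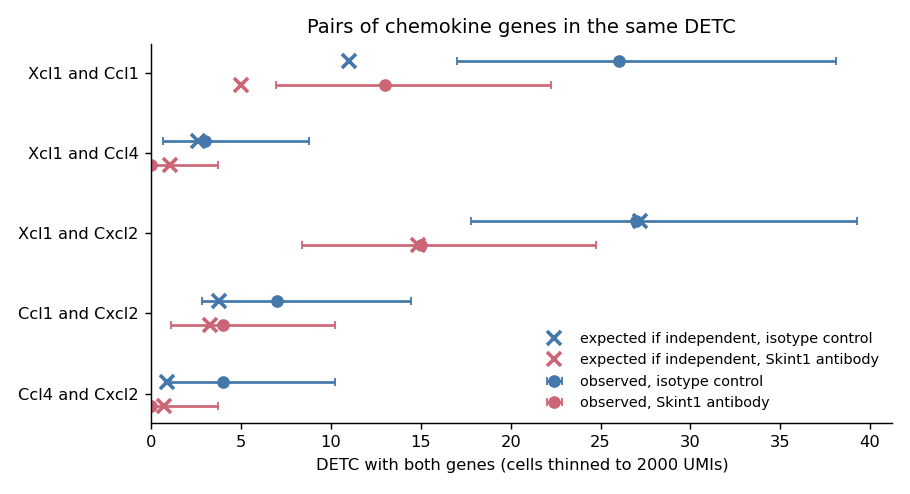
Number of DETCs, thinned to 2000 UMIs, that held both genes of a pair (points, with exact Poisson 95% intervals) and the number expected if the genes were independent (crosses), in the isotype control (blue) and Skint1 antibody (red) libraries. Pairs with an expected number of at least 0.5 are shown. Xcl1 and Ccl1 met in 26 and 13 cells, against 11.0 and 4.96.

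By the 2-fold rule given next, Tnfrsf9 passed for Xcl1, while Nfkbia and Fos passed for both Cxcl2 and Ccl1. Differences between the members were not tested. Each gene of the lists at 50 CPM or more was used to split thinned DETCs into those with and without a UMI of it. The share with Xcl1 was at least 2-fold higher in both libraries in cells with Tnfrsf9, 1 of 11 TCR response genes compared. Over all 2788 genes compared 0.0717% passed. None of 7 AP-1 genes, 6 cytokines and 8 heat shock genes compared passed for Xcl1. Xcl1 was found in 32.3% of DETCs with Tnfrsf9 and 12.1% of those without in the isotype library, and in 13.4% and 6.17% in the Skint1 antibody library. For mean levels, the highest log2 ratios were ranked by the lower value of the 2 libraries and the lowest ratios by the upper value. By mean Xcl1 level, the ratios of cells with over cells without were 2.91 and 2.19 for Tnfrsf9, 1.33 and 2.11 for the T cell growth factor Il2, and 0.95 and 1.505 for the NF-kB subunit Rel. For the heat shock gene Hspa8 they were 0.48 and 0.68, and for the growth factor Areg 0.44 and 1.06. The 334-UMI cell, which held Il2 and Areg UMIs, entered the second values. Without the DETC highest in Xcl1 in each library the ratios were 2.85 and 1.03 for Tnfrsf9, 1.17 and 0.78 for Il2, 1.00 and 0.44 for Rel, 0.44 and 0.35 for Hspa8, and 0.49 and 0.32 for Areg. By share of cells, Xcl1 was found in 14.99% of DETCs with Il2 and 15.3% of those without in the isotype library, and in 8.87% and 6.69% in the Skint1 antibody library. The lowest ratios were those of Hspe1, Nfkbid, Egr1, Tnfaip3 and Hsph1, between −0.48 and 0.06. Without the highest DETC of each library they were −0.44 to 0.10 (isotype) and 0.05 to 0.27 (Skint1 antibody). The share with Xcl1 was higher with Tnfaip3 in both libraries (16.7% against 14.3%, then 7.98% against 6.30%). So it was with Egr1 (15.5% against 15.2%, then 7.38% against 6.61%). With Nfkbid it was lower in both (14.1% against 15.4%, then 6.43% against 6.95%). Hspe1 and Hsph1 differed in direction between libraries. By mean level in the Skint1 antibody library alone, Hspa1b, Hspd1 and Hspa1a were lower, from −0.72 to −0.601, or from −0.29 to −0.063 without the 334-UMI cell. Egr1 is an early transcription factor of TCR signals, while Tnfaip3 and Nfkbid restrain NF-kB signalling.

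The share with Cxcl2 was at least 2-fold higher in both libraries in DETCs with Nfkbia, an inhibitor of NF-kB that NF-kB itself induces, and in those with Fos, an AP-1 subunit of the immediate early response. These were 1 of 11 TCR response genes and 1 of 7 AP-1 genes, with 0 of 6 cytokines and 0 of 8 heat shock genes, and 0.179% of all genes passed. Cxcl2 was found in 6.66% of DETCs with Nfkbia and 2.25% of those without in the isotype library, and in 5.84% and 2.18% in the Skint1 antibody library. With and without Fos the shares were 6.07% and 1.88%, then 5.17% and 1.99%. By mean Cxcl2 level the log2 ratios were 2.25 and 2.50 for Nfkbia, 2.02 and 2.04 for Fos, 1.504 and 1.65 for Areg, 1.10 and 1.19 for Hspa8, and 0.98 and 1.43 for Egr1. The lowest by the upper value were those of the heat shock genes Hspd1, Hspa1b and Hspa1a, the cytokine Ltb and the AP-1 gene Jund, between −0.62 and 0.30. In DETCs with and without Tnfrsf9, Cxcl2 was found in 4.82% and 5.29%, then in 4.61% and 4.52%. Cells had been released with trypsin at 37 °C, and the part of this handling in Fos, Nfkbia or Cxcl2 was not tested.

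The share with Ccl1 was at least 2-fold higher in both libraries in DETCs with Nfkbia, Fos or Areg, which were 1 of 11 TCR response genes, 1 of 7 AP-1 genes and 1 of 6 cytokines, and in those with Xcl1. None of 8 heat shock genes passed, and 0.502% of all genes did. Ccl1 was found in 2.79% of DETCs with Nfkbia and 0.719% of those without in the isotype library, and in 2.03% and 0.590% in the Skint1 antibody library. With and without Fos the shares were 2.46% and 0.724%, then 1.79% and 0.420%. By mean Ccl1 level, Nfkbia, Il2, the early activation marker Cd69, Areg and Fos had the highest ratios by the lower value, from 0.83 to 2.19, and Hspa1a, Hsph1, Hspe1, Hspa1b and Nfkbid the lowest by the upper value, from −1.34 to 0.005. In the isotype library alone, the heat shock gene Hsp90aa1 was at 2.29. The Ccl1 ratios rest on 72 thinned DETCs with the gene in each library.

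Genes whose thinned counts were most like those of a member over DETCs were ranked by Pearson's r, taking the lower of the values in the 2 libraries. For Xcl1 these were Gzmc (0.36 and 0.22), Tnfrsf9 (0.36 and 0.11), the class I molecule H2-K1 (0.14 and 0.078), the actin-binding Tmsb4x (0.17 and 0.077) and the G protein regulator Rgs2 (0.085 and 0.074). For Cxcl2 they were Nfkbia (0.12 and 0.11), Areg (0.085 and 0.11), Gadd45b (0.081 and 0.094), Hspa5 (0.072 and 0.070) and Dusp1 (0.069 and 0.10). For Ccl1 they were Gzmc, Nfkbia, Xcl1, Btg1 and Hist1h2bc, with r from 0.054 to 0.15. The median over 2851 genes was −0.01 for Xcl1. The correlations are across cells of 1 library and most of them are weak.

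**Figure D5:**
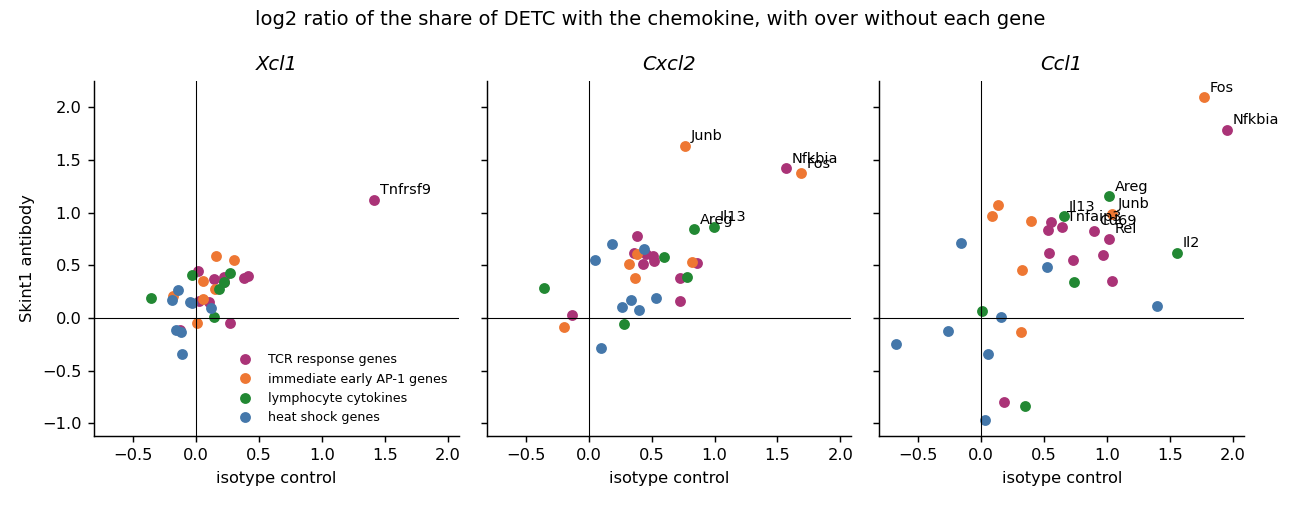
Share of thinned DETCs with Xcl1, Cxcl2 or Ccl1 in cells that held a UMI of a listed gene over cells that did not, as log2 ratios in the isotype control (x axis) and Skint1 antibody (y axis) libraries. Each point is 1 gene, coloured by list, with names where both ratios were above 0.6. Tnfrsf9 stood apart for Xcl1 (1.42 and 1.12), and Nfkbia (1.57 and 1.42) and Fos (1.69 and 1.38) were among the highest for Cxcl2.

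The alpha-beta T class differed from DETCs in which chemokines it held. Of 5 members compared, Ccl1, Ccl4 and Ccl5 were at least 2-fold higher than in DETCs in both libraries and 0 were 2-fold lower. Over all genes 5.11% were higher and 8.65% were lower. Ccl5, a chemokine of memory and cytotoxic T cells, was at 182 CPM (154 to 214) and 67.0 CPM (50.6 to 86.9), log2 ratios of 8.38 and 6.71 over DETCs. It was found in 14 of 197 and 15 of 213 cells, 7.11% and 7.04% without thinning, and in 3.16% (1.17 to 6.75) and 5.61% (2.83 to 9.82) after it. Xcl1 was at 30.0 and 58.6 CPM, below DETCs by log2 ratios of −3.41 and −0.72. Of the 49 Xcl1 UMIs of the Skint1 antibody library, 37 lay in the 44 cells with 3 or more Trdc UMIs. Without such cells Xcl1 was at 26.2 and 18.7 CPM, with ratios of −3.61 and −2.37 over DETCs, and was then 2-fold lower in both libraries. Cxcl2 was at 40.0 CPM and 261 CPM, from 12 and 14 cells.

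Only the Ccl5 difference held when the cell with most UMIs of each gene was left out of each class. A single alpha-beta T cell of the isotype library held 289 of 292 Ccl1 UMIs, with 2 Trac and 36 Trbc2 UMIs. Without the highest cells the Ccl1 ratio over DETCs was −2.23 and −0.12, where it had been 4.21 and 1.33. All 10 Ccl4 UMIs of the isotype library came from 1 cell, and 38 of 55 in the Skint1 antibody library came from 1 cell that also held 19 of the 23 Ccl3 UMIs. With no upper limit on genes, 1 member, Ccl5, was 2-fold higher in both libraries.

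Within the class, Ccl5 and Xcl1 levels were higher in cells with Cd8 transcripts than in cells with Cd4, while few cells held most UMIs. Cells with Cd8a or Cd8b1 but not Cd4 UMIs numbered 25 and 17, and held Ccl5 at 805 CPM (646 to 991) and 471 CPM (324 to 662). Cells with Cd4 but neither Cd8 gene numbered 50 and 51, and held Ccl5 at 10.7 CPM (1.29 to 38.5) and 35.1 CPM (14.1 to 72.2). Of the Ccl5 UMIs in the isotype Cd8 cells, 77 of 89 came from 1 cell. Isotype cells with both Cd4 and Cd8 UMIs were left out of this split. Among them was the cell 2nd in Ccl5, with 40 of the 146 Ccl5 UMIs of the class, 1 Cd4 UMI and 2 Cd8a UMIs. Ccl5 was found in 4 of 25 and 6 of 17 Cd8 cells, against 2 of 50 and 4 of 51 Cd4 cells. Xcl1 was at 99.5 and 114 CPM in the Cd8 cells, and 0 Xcl1 UMIs were counted in the Cd4 cells of either library. The 11 isotype Xcl1 UMIs lay in 3 Cd8 cells, 8 of them in the cell with 77 Ccl5 UMIs. Without the Cd8 cell highest in Ccl5 in each library, Ccl5 was at 112 and 254 CPM and Xcl1 at 28.0 CPM (5.78 to 81.9) and 105 CPM (42.0 to 215). Cxcl2 was at 72.4 CPM and 0 UMIs in the Cd8 cells, and at 16.0 and 311 CPM in the Cd4 cells. Cells with neither co-receptor numbered 120 and 145, with Ccl5 at 30.5 and 28.2 CPM. They held 13 of 24 and 41 of 49 Xcl1 UMIs of the class, at 26.4 and 72.3 CPM.

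Between libraries, all 6 members reached 10 CPM in the alpha-beta T class. Ccl3, Ccl4 and Cxcl2 were at least 2-fold higher in the Skint1 antibody library, and Ccl1 and Ccl5 were 2-fold lower. Over all genes of that class 2.36% were higher and 3.1% were lower. The log2 ratios were 2.40 for Ccl4, 2.71 for Cxcl2, −3.73 for Ccl1, −1.45 for Ccl5 and 0.97 (0.23 to 1.74) for Xcl1. Without cells of 3 or more Trdc UMIs the Xcl1 ratio turned to −0.49 (−1.66 to 0.63), and that of Cxcl2 was 1.90, at 40.0 and 149 CPM. Ccl3 had 0 UMIs with isotype control and 23 with Skint1 antibody, at least 7.34-fold higher against a floor of 3 UMIs per library. The 3 highest cells held 90.9% of the Ccl4 UMIs and 68.8% of the Cxcl2 UMIs of the Skint1 antibody library, so each ratio compares a few cells. When the cell with most UMIs of the gene was left out of each library, Ccl1 turned from 2-fold lower to higher, at 3.79 and 9.67 CPM and a ratio of 1.35 (−0.71 to 3.901). Ccl5 was then at 86.5 and 48.0 CPM, a ratio of −0.85 (−1.45 to −0.27) and no longer 2-fold. Cxcl2 was at 2.54 and Xcl1 at 0.99 (0.083 to 1.95). Ccl4 had 0 and 17 UMIs left, at least 5.42-fold higher against the floor, and Ccl3 had 0 and 4, at least 1.28-fold higher.

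In the ILC class Cxcl2 was at 222 CPM (177 to 274) and 408 CPM (361 to 460). It was found in 6 of 82 cells and 24 of 139 cells. Of the 5 members compared with DETCs, Ccl4 and Ccl5 were at least 2-fold higher in both libraries and Xcl1 was 2-fold lower. Over all genes 6.66% were higher and 11.6% were lower. Xcl1 was at 0 UMIs in the isotype library, at least 40.7-fold below DETCs against the floor of 3 UMIs, and at 7.58 CPM with Skint1 antibody, for which the log2 ratio was −3.67 (−5.30 to −2.45). The 5 UMIs behind that value came from 1 cell. All 43 Ccl4 UMIs and all 17 Ccl5 UMIs of the isotype library came from a single cell, which also held 26 Cxcl2, 3 Ccl3 and 25 Tyrobp UMIs and 17 UMIs of Langerhans or myeloid markers. Without the highest cells of each class no member was 2-fold higher in ILCs than in DETCs in both libraries.

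Cells with keratin or Langerhans cell UMIs carried part of the ILC values. Without the 13 and 31 ILCs that held them, Cxcl2 was at 101 CPM and 203 CPM, and it was found in 4 of 69 and 15 of 108 cells. Ccl4, from its single cell, was then above Cxcl2 in the isotype library at 139.9 CPM, and the Cxcl2 ratio over DETCs turned from 0.84 to −0.30 there. The keratin gene Krt14 was then at 13.0 CPM in the Skint1 antibody library, from 1864 CPM over all its ILCs. Ccl1 was at 140 CPM (112 to 171) in ILCs of the Skint1 antibody library, from 10 cells, of which 1 held 64 of 92 UMIs. In the isotype library it was 1 UMI. Without the keratin or Langerhans cells Ccl1 was at 168 CPM, from 7 cells. Between libraries, 4 members could be compared in ILCs. Ccl1 was 2-fold higher in the Skint1 antibody library, while Ccl4 and Ccl5 were 2-fold lower, against 6.65% of all genes higher and 6.96% lower. Leaving out the highest cell of each library, Ccl1 had 0 and 28 UMIs, at least 5.42-fold higher, while Ccl4 had none in either library and Ccl5 had 0 and 1, so neither gave a ratio. The ratio of Cxcl2 was 0.88 (0.52 to 1.25) over all ILCs, and 0.95 (0.50 to 1.42) without the highest cell of each library. Its 101 and 203 CPM without the keratin or Langerhans cells lay at about the 2-fold limit.

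Other chemokine genes also differed by class. Of the 31 other ligands counted, 3 reached 10 CPM in alpha-beta T cells and 8 in ILCs over both libraries pooled. Ccl20 reached it in the isotype alpha-beta T cells alone, at 18.7 CPM and 0 UMIs. Cxcl10 was at 161 and 139 CPM in alpha-beta T cells and at 107 and 25.8 CPM in ILCs. In ILCs of the Skint1 antibody library, the neutrophil attractants Cxcl1 and Cxcl3 were at 161 and 63.7 CPM, and the keratinocyte chemokine Ccl27a at 36.4 CPM. These were 2.61, 7.83 and 5.22 CPM in the isotype library, and summed keratinocyte markers differed in the same direction, whose part in these values was not tested. Without the keratin or Langerhans cells Cxcl1 was at 13.0 CPM in the Skint1 antibody library. Cxcl14 was at 7.83 and 27.3 CPM, Cxcl16 at 15.7 and 22.7 CPM, and Ccl9 at 52.2 CPM and 0 UMIs. Cxcl1 was also at 3.75 and 16.7 CPM in alpha-beta T cells. Among receptors, Cxcr6 was at 441 and 317 CPM in alpha-beta T cells and 272 and 294 CPM in ILCs, and Cxcr4 at 217 and 222, then 157 and 138 CPM. Ccr6, the receptor of Ccl20, was at 94.9 and 117 CPM in alpha-beta T cells and 219 and 265 CPM in ILCs. The Ccl1 receptor Ccr8 was at 20.9 and 9.10 CPM in ILCs. Ccr2 was at 152 and 76.5 CPM and Ccr7 at 109.9 and 72.9 CPM in alpha-beta T cells, with Ccrl2 and Cx3cr1 between 40.6 and 61.2 CPM. In ILCs, Ccr7 and Ccrl2 were between 13.6 and 23.5 CPM and Cx3cr1 at 54.8 and 16.7 CPM. The receptors Ccr1, Ccr4 and Cxcr3 were between 10.8 and 18.7 CPM in alpha-beta T cells. Xcr1 and Cxcr2, the receptors of Xcl1 and Cxcl2, did not reach 10 CPM in any of the 3 classes. The MHC-II- sort and the lymphocyte gates were not set to take dendritic cells or neutrophils, the cells these chemokines draw.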

How the data were processed

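Single-cell RNA counts came from 2 libraries of mouse epidermal lymphocytes, 1 given isotype control and 1 given Skint1 antibody. The authors made the deposited count matrices with CellRanger 3.0.2 (mm10), with values as UMIs per gene and barcode and no normalization. Kept barcodes had 500 to 2500 genes and no more than 12% of UMIs from mitochondrial genes, and 3 classes were gated from other genes. The members, gates and gene lists were chosen with earlier results of these data known.

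UMIs were summed per class and library with pandas 2.3.3, scipy 1.17.1 and numpy 2.4.6 under Python 3.11.15. With 1 library per treatment no test was run, and a call means a 2-fold difference among genes at 10 CPM or more, with a count of 0 set to a floor of 3 UMIs. Shares and pairs of genes were taken after each cell was thinned to 2000 UMIs without replacement. Intervals are exact at 95% and cover counting error only. Doublets stayed in. Scrublet (scanpy 1.11.5) marked 1 of 4709 and 0 of 6425 barcodes by its own threshold, so its highest scores, 177 and 330, were left out as an alternative.

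All 6 members were named throughout. Of other ligands and receptors, those at 10 CPM or more in a class were named. Of TCR response, AP-1, cytokine and heat shock genes, the 5 with the highest and the 5 with the lowest ratio of member level were named, and the 5 most correlated genes for members found in at least 50 DETCs. Splits by gene number, mitochondrial percent, co-receptor and cells outside the gates were added after the values were seen. Promoter windows came from RefSeq, and the TATA-type letters were chosen after the windows were seen. The ratios, intervals and fold calls were run on simulated sums with Poisson counts, and co-detection on simulated cells. The simulated sums held no clumping of UMIs in few cells, so they cannot show how the intervals behave for such genes. Fold calls, not the study's tests over cells, were used.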

Additional observations from a re-analysis of the deposited data

Results flagged for a closer look

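Ratios between libraries that ran in opposite directions in different classes were picked out, where both intervals left out 0. These intervals do not cover UMIs held together in few cells. The differences between classes were not tested. Xcl1 had a log2 ratio of Skint1 antibody over isotype of 0.97 in alpha-beta T cells, from 9 and 13 cells with the gene, and −1.72 in DETCs. Without alpha-beta T cells of 3 or more Trdc UMIs the first ratio was −0.49 (−1.66 to 0.63), so the opposite directions rested on cells with Trdc UMIs. Ccl1 had a ratio of 5.74 in ILCs, against −0.85 in DETCs and −3.73 in alpha-beta T cells, where 1 isotype cell held 289 of 292 UMIs. Without the highest cell of each library Ccl1 was higher with Skint1 antibody in both of the small classes, at 3.79 and 9.67 CPM in alpha-beta T cells, with an interval of the log2 ratio from −0.71 to 3.901. In ILCs it was then 0 and 42.8 CPM, while the DETC ratio was −0.76. Ccl4 had a ratio of 2.40 in alpha-beta T cells and −3.04 in ILCs, where all 43 isotype UMIs came from 1 cell. Without the highest cells, 0 Ccl4 UMIs remained in ILCs of either library.

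Cells outside the 3 classes gave further signal. Xcl1 was at 207 CPM in the 678 kept cells of no class of the Skint1 antibody library, above the 96.7 CPM of its DETCs. Among these, 280 cells with at least 3 CD3 UMIs but fewer than 3 Trdc UMIs held Xcl1 at 294 CPM, of which 96 of 288 UMIs came from 1 cell, against 111 CPM in 191 such isotype cells. Xcl1 was also at 112 CPM in barcodes with over 2500 genes of the Skint1 antibody library, where 1 cell held 270 of 649 UMIs and the level without it was 65.7 CPM, below that of DETCs. Ccl3 was at 38.3 CPM in the isotype cells of no class, or 26.7 CPM without the highest cell. Of its 72 UMIs, 71 lay in 46 cells with at most 2 CD3 UMIs. Those cells held Lyz2 at 1446 CPM and S100a8 at 2289 CPM, genes of macrophages and neutrophils, together with Ccl4 at 717 CPM and Cxcl2 at 1423 CPM.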

How the results depend on the processing

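No paired analysis was possible because each treatment had 1 library. The alternatives that leave out the highest cell, use cells outside a gate, or leave out ILCs with keratin or Langerhans UMIs or alpha-beta T cells with 3 or more Trdc UMIs, were chosen after seeing the data. Of the values under alternatives that answer a comparison, 82 stayed within their interval or within 1.5 times a count, and the 39 others follow. In DETCs the Xcl1 log2 ratio was −1.56 with no upper gene limit, −0.94 at up to 5% mitochondrial UMIs, −1.81 without the 10 highest cells, −1.95 without the highest cell, −1.83 with Trdv4 required, and −2.11 in cells outside the gate with Trac, Cd4 or Cd8 UMIs. Ccl1 was at 0.38 with no upper gene limit, −0.55 at up to 5% mitochondrial UMIs and −0.52 without the highest cell as well, and −1.504 in those cells outside the gate. Cxcl2 was at 0.10 both as a mean of cell CPM and after thinning, and at 1.60 outside the gate.

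The number of members 2-fold higher in alpha-beta T cells than in DETCs was 3, and became 1 with no upper gene limit, 1 without the highest cell and 0 without the 10 highest. Members 2-fold lower numbered 0, and became 1 at up to 5% mitochondrial UMIs, 1 (Xcl1) with Trac of at least 2, 1 (Xcl1) without cells of 3 or more Trdc UMIs, and 2 without the 10 highest cells. Leaving out 10 cells emptied or nearly emptied genes found in few cells of a small class, by construction. Of the 3, Ccl1 was lost at up to 5% mitochondrial UMIs and as a mean of cell CPM. Members 2-fold higher in ILCs numbered 2, and became 0 with no upper gene limit, 0 without the highest cell or the 10 highest, and 1 without keratin or Langerhans cells. At up to 5% mitochondrial UMIs there were 3, with Ccl5 lost and Ccl1 and Cxcl2 gained, and Cxcl2 was gained without mitochondrial and ribosomal UMIs and with Trac and Trdc at 0. Xcl1 was 2-fold lower in ILCs under all 11 alternatives run.

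Ratios of single members over DETCs changed sign in 9 cases, of which 2 had not been 2-fold. For alpha-beta T cells these were Ccl1 without the highest cell (−2.23 and −0.12), Ccl1 with no upper gene limit in the Skint1 antibody library (−0.078), and Cxcl2 there without the 10 highest cells (−2.99). For ILCs of that library they were Ccl4 (−0.018) and Cxcl2 (−0.019) with no upper gene limit, and Cxcl2 without the 10 highest cells (−0.53). For isotype ILCs they were Cxcl2 with no upper gene limit (−0.41) and without keratin or Langerhans cells (−0.30). The cause was not tested.

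Shares of DETCs with Xcl1 were 11.1% and 4.54% when thinned to 1000 UMIs, 17.9% and 9.19% at 3000 UMIs, and 19.9% and 9.77% without thinning. Shares with Cxcl2 were 4.13% and 3.45%, 6.40% and 6.24%, and 6.57% and 5.95%. With at least 2 UMIs required, the ratio of observed to expected cells was 1.49 and 1.76 for Xcl1 and Cxcl2, and 4.59 for Xcl1 and Ccl1 in the Skint1 antibody library. Cell number limits the alpha-beta T and ILC classes, where 82 to 213 cells per library stood behind each value and a single cell could hold nearly all UMIs of a gene.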
